A study of Homo sapiens with 6 samples.

Results

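Transcripts of the Toll-like receptors and of the proteins that work directly with them were examined in MV4-11 cells treated with the WNK kinase inhibitor WNK463. The 10 genes were found by exact match of their symbols in a table of 20348 genes, and all 10 were present. They are the surface receptors TLR1, TLR2, TLR4, TLR5 and TLR6, the endosomal receptors TLR7, TLR8 and TLR9, the adaptor MYD88 and the TLR4 co-receptor LY96. MV4-11 is an established human acute myeloid leukemia (AML) cell line of myelomonocytic type. The study sequenced mRNA from 3 untreated cultures (Ctrl) and from 3 cultures given 1 μM WNK463, both collected at 48 h, to look for transcripts that respond to the inhibitor. Total counts ranged from 14915745 to 17411780 per library. The labels do not say whether the 3 samples of a group came from separate experiments, so the p-values measure only the spread between these samples.

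Toll-like receptors are sensors of microbial molecules and are a hallmark of monocytes, macrophages and dendritic cells. TLR2 pairs with TLR1 or TLR6 to bind bacterial lipoproteins, TLR4 binds lipopolysaccharide together with LY96 (MD-2), and TLR5 binds flagellin. TLR7, TLR8 and TLR9 sit in endosomes and bind nucleic acids. Nearly every receptor of the family signals through MYD88, which recruits IRAK kinases and TRAF6 and leads to NF-kB, AP-1 and the induction of cytokine genes.

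TLR2 and MYD88 were higher in the WNK463 cultures and TLR4 was lower, each by less than 2-fold. TLR5 was also called lower, on few counts, a call lost in 10 of its 12 alternatives. TLR1, TLR6 and TLR9 did not pass the test, and TLR7, TLR8 and LY96 did not pass the filter on low counts. These 3 were tested only under alternatives that let them through, and none was called there. In numbers, 7 of the 10 genes passed the filter on low counts, and with edgeR at an adjusted p below 0.05, 2 were called higher and 2 lower. Over all 11973 genes tested, 70.8% were called, 35.5% higher and 35.3% lower, so a call on its own says little about these genes. The groups did not overlap in TMM-scaled CPM, the library-size-adjusted count for 4 of the 7, against 73.5% of all genes tested. None of the 7 was called with an absolute log2 fold change of 1 or more, where 15.2% of all genes were. That count was 0 in edgeR also at an unadjusted p below 0.05, and 0 in DESeq2. Without TMM, using library totals alone (total-count scaling), the median over all genes moved up by 0.15 on the log2 scale, with 5525 genes higher and 3123 lower where TMM gave 4251 and 4222. For single genes, the exact permutation test of 3 against 3 samples cannot give a two-sided p below 0.10.

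**Figure D1:**
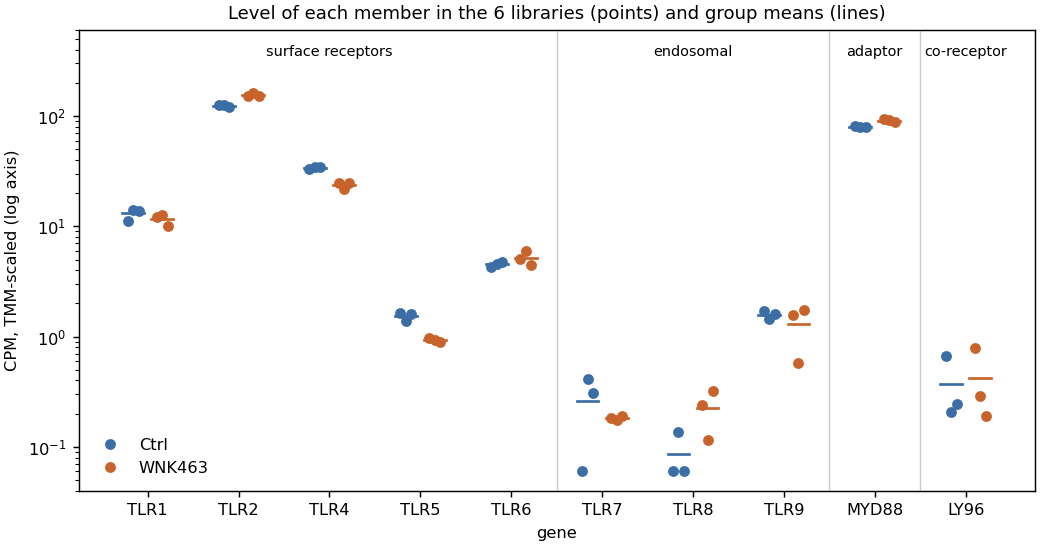
CPM of the 10 genes in each library on a log axis, with Ctrl in blue, WNK463 in orange, points for libraries and lines for group means. TLR2 and MYD88 lie above all other genes, the TLR4 and TLR5 points of the groups are apart with WNK463 lower, and the values of TLR7, TLR8 and LY96 are all below 1 CPM.

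Levels between genes were compared in TPM, the authors' length-adjusted transcript level. In Ctrl the order was TLR2 at 70.3 ± 1.67 TPM, MYD88 at 56.3 ± 0.438 TPM, TLR4 at 11.2 ± 0.749 TPM and TLR1 at 9.01 ± 1.17 TPM (SD, n = 3), and each of these neighbours was separate in all 3 libraries. TLR6, LY96, TLR9 and TLR5 followed with means from 0.777 to 1.59 TPM, and no neighbours among them were separate. TLR7 at 0.0967 TPM and TLR8 at 0.0427 TPM came last and overlapped. In WNK463 the top of the order was again TLR2 at 101.2 ± 3.64 TPM and MYD88 at 73.0 ± 2.22 TPM. TLR1 at 9.91 ± 1.73 TPM then stood before TLR4 at 7.84 ± 0.464 TPM, but the values of that pair overlapped.

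TLR2 (ENSG00000137462), the lipoprotein receptor, lies on the plus strand at chr4:153684070-153705702 (GRCh38, GENCODE 29). Its estimated counts were 2065, 1824 and 1976 in Ctrl and 2540, 2804 and 2374 in WNK463. All 3 treated libraries were above all 3 controls. Scaled for library size, Ctrl averaged 123.8 ± 2.85 CPM and WNK463 156.0 ± 6.16 CPM (SD, n = 3 per group). The log2 fold change was 0.33 (SE 0.05, 95% interval 0.23 to 0.44, edgeR adjusted p = 1.2e-05). With limma on log2(TPM + 1) the log2 fold change was 0.52, over 1.5 times as large.

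TLR1 (ENSG00000174125) and TLR6 (ENSG00000174130) supply the partner chains of TLR2. Both lie on the minus strand of chromosome 4, and the annotated TLR1 gene at chr4:38790677-38856817 contains the whole of TLR6 at chr4:38823715-38856817. Their coding sequences, of 2361 and 2391 bases in the transcripts compared, share an identical run of 218 bases. In TLR1, 5.26% of all 100-base windows of the coding sequence also occur in a TLR6 transcript. Reads from such stretches can be assigned to either gene, so the separate values are uncertain. TLR1 had 185, 205 and 228 counts in Ctrl and 201, 218 and 158 in WNK463. These values overlap, and the log2 fold change was -0.16 (SE 0.12, edgeR adjusted p = 0.24). Its sign depended on the unit, with 0.12 from limma on log2(TPM + 1), and its size varied, at -0.01 under total-count scaling, -0.08 without WNK463 replicate 3 and -0.27 without Ctrl replicate 1. TLR6 had 70, 67 and 78 counts in Ctrl and 83, 102 and 70 in WNK463, a log2 fold change of 0.18 (SE 0.18, edgeR adjusted p = 0.37). Again the groups overlap. The size for TLR6 varied with the setting, at 0.33 under total-count scaling, 0.06 without WNK463 replicate 2 and 0.04 with limma on log2(TPM + 1). Added together, the pair gave 17.6 ± 1.81 CPM in Ctrl and 16.8 ± 2.05 CPM in WNK463 (SD, n = 3 each, exact permutation p = 0.5), a difference smaller than the spread between replicates.

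TLR4 (ENSG00000136869), the lipopolysaccharide receptor, is on the plus strand at chr9:117704175-117724730. Its counts were 549, 504 and 563 in Ctrl and 409, 376 and 384 in WNK463. Every treated library was below every control. The level fell from 34.1 ± 0.604 to 23.7 ± 1.59 CPM (SD, n = 3 each), with a log2 fold change of -0.53 (SE 0.08, 95% interval -0.69 to -0.36, edgeR adjusted p = 8.3e-06). The annotation places a second gene, AL160272.2, over TLR4 on the same strand, and its row held between 1 and 8 counts per library.

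Promoter sequence was searched for all of the 10 genes that had a promoter entry, called or not. A link between motif matches and changes in level was not tested. RefSeq (GRCh38.p14) promoter entries matched 7 of the 10 genes: TLR2, TLR4, TLR5, TLR6, TLR8, TLR9 and MYD88. The 250 bases before each RefSeq start site were searched on both strands for GAGGAA, the core recognised by PU.1, an ETS factor of myeloid cells. Of 35116 promoters of this length, 23.6% held at least 1 match and 0.421% held 3 or more. TLR4 had 4 matches, TLR9 had 2, MYD88 and TLR6 had 1 each, and TLR2, TLR5 and TLR8 had 0. The AP-1 motif TGANTCA occurred in 6.57% of all promoters and, among these 7, once in TLR9. The NF-kB consensus occurred in 9.96% of all promoters and in 0 of these 7. A match describes the letters only and does not show that a factor binds. SPI1, the gene of PU.1, is one of the myelomonocytic markers and was singled out here after its values were seen. It had 218.1 ± 3.99 CPM in Ctrl and 218.4 ± 4.46 CPM in WNK463 (SD, n = 3 per group; log2 fold change 0.002, edgeR adjusted p = 0.971). In other settings SPI1 was called higher, at 0.15 under total-count scaling (edgeR adjusted p = 0.0049) and 0.19 in limma on log2(TPM + 1) (adjusted p = 0.0021), with 296.8 ± 5.25 TPM in Ctrl and 339.3 ± 7.16 TPM in WNK463 (SD, n = 3 each). The stretches around the matches of TLR4 and MYD88 are given below on the plus strand, 30 bases each with the match (or its reverse complement) in capitals, to show how the copies at TLR4 compare. In TLR4 the matches begin 224, 171, 99 and 40 bases before the RefSeq start site. The 30-base stretches around them lie at chr9:117704167-117704196, chr9:117704220-117704249, chr9:117704292-117704321 and chr9:117704351-117704380. The match of MYD88 begins 18 bases before its start site, and the 30-base stretch around it lies at chr3:38138631-38138660. In GENCODE 29, 228 of the 250 bases at TLR4 lie in an exon of TLR4, or 246 when exons of AL160272.2 are counted as well, and 183 of the 250 at MYD88 lie in an exon of MYD88. The TLR9 window lies wholly in an exon of TLR9, 210 bases of the TLR2 window lie in an exon of TLR2 and 34 of the TLR5 window in an exon of TLR5, while those of TLR6 and TLR8 hold 0 exon bases.
TLR4 match 1: aagccaactagcTTCCTCttgctgtttctt
TLR4 match 2: tcttcttctaacTTCCTCtcctgtgacaaa
TLR4 match 3: tgccgctttcacTTCCTCtcaccctttagc
TLR4 match 4: gtggggcggctcGAGGAAgagaagacacca
MYD88 match 1: ccgcaggagaaaGAGGAAgcgctggcagac

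TLR5 (ENSG00000187554), the flagellin receptor, is on the minus strand at chr1:223109406-223143282. It had 27, 20 and 26 counts in Ctrl and 16, 16 and 14 in WNK463. The groups did not overlap, but the sums behind them were only 73 and 46 counts. The log2 fold change was -0.72 (SE 0.32, 95% interval -1.38 to -0.06), and edgeR gave an adjusted p of 0.0498, just inside the threshold. The call was lost when any of the 6 libraries was left out (edgeR adjusted p from 0.0681 to 0.134), under total-count scaling (edgeR adjusted p = 0.108), with no filter on low counts (0.101), with a replicate block (0.0881) and in DESeq2 (adjusted p = 0.126). Over all 12 alternatives the adjusted p from edgeR, DESeq2 or limma ran from 0.0277 to 0.134. In every one of them the value stayed below 0, and limma on log2(TPM + 1), a scale that understates changes of low genes, gave -0.22.

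**Figure D2:**
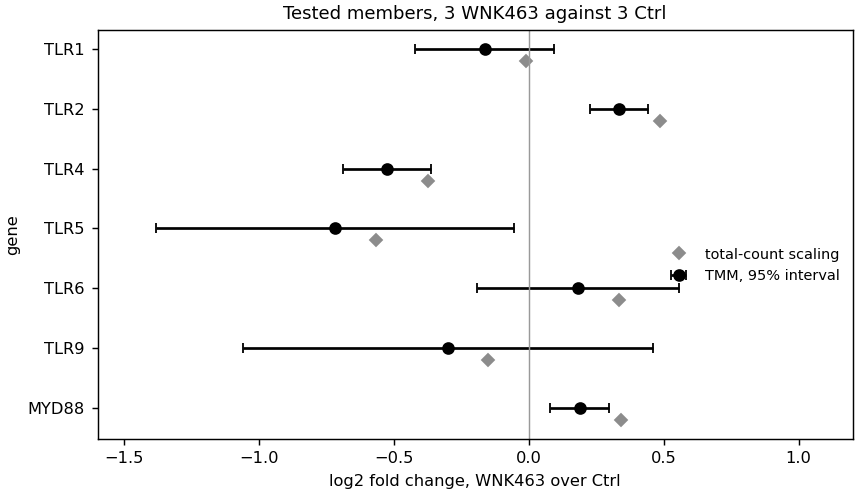
Log2 fold change of WNK463 over Ctrl for the 7 tested genes, as circles with 95% intervals under TMM scaling and diamonds under total-count scaling. TLR2 and MYD88 lie above 0 and TLR4 below 0 under both, the interval of TLR5 reaches almost to 0, and those of TLR1, TLR6 and TLR9 include 0.

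The endosomal receptors were much less abundant than TLR2 or TLR4. TLR9 (ENSG00000239732), the sensor of unmethylated CpG DNA at chr3:52221080-52226163 on the minus strand, was the only endosomal receptor that passed the filter. It had 28, 21 and 26 counts in Ctrl and 26, 10 and 27 in WNK463. A single treated library was low and the other two were within or above the control range. The log2 fold change was -0.30 (SE 0.36, 95% interval -1.06 to 0.46, edgeR adjusted p = 0.464), and without WNK463 replicate 2 it was 0.06. Total-count scaling gave -0.15 and limma on log2(TPM + 1) -0.07, and without WNK463 replicate 1 or 3 it was -0.47 or -0.56. TLR7, a receptor for single-stranded RNA, had 1, 6 and 5 counts in Ctrl and 3 in each WNK463 library. TLR8, also a receptor for single-stranded RNA, had 1, 2 and 1 counts in Ctrl and 4, 2 and 5 in WNK463. The sums were 12 and 9 for TLR7, and 4 and 11 for TLR8. Exact Poisson 95% intervals of the TLR8 sums, 1.09 to 10.2 and 5.49 to 19.7, overlap. Such intervals cover counting error only. Tested without the filter, TLR7 had a log2 fold change of -0.48 (edgeR adjusted p = 0.647) and TLR8 one of 1.31 (edgeR adjusted p = 0.293). Neither gene was called, and the part of sequencing depth in this was not tested. TLR7 and TLR8 are both annotated on the plus strand of the X chromosome, at chrX:12867083-12890380 and chrX:12906620-12923169.

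MYD88 (ENSG00000172936), the shared adaptor, lies on the plus strand at chr3:38138478-38143022. Its counts were 1335, 1154 and 1305 in Ctrl and 1545, 1572 and 1388 in WNK463. All treated libraries exceeded all controls. The level rose from 80.0 ± 1.13 to 91.1 ± 2.36 CPM (SD over 3 libraries), which is small in size, with a log2 fold change of 0.19 (SE 0.05, 95% interval 0.08 to 0.30, edgeR adjusted p = 0.004). Total-count scaling gave 0.34 and limma on log2(TPM + 1) gave 0.37, both over 1.5 times as large.

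LY96 (ENSG00000154589), the secreted chain that holds lipopolysaccharide for TLR4, had 11, 3 and 4 counts in Ctrl and 13, 5 and 3 in WNK463. The sums were 18 and 21 counts. In TPM it averaged 1.23 ± 0.838 in Ctrl and 1.64 ± 1.27 in WNK463 (SD, n = 3 each), so the spread between replicates was far larger than the difference. Tested without the filter on low counts, its log2 fold change was 0.15 (edgeR adjusted p = 0.861). Without Ctrl replicate 2 or WNK463 replicate 3 it passed the filter, at -0.12 and 0.49 (edgeR adjusted p = 0.889 and 0.52). TLR4 exceeded LY96 in TPM in every library, most narrowly in WNK463 replicate 1, where TLR4 was at 7.92 and LY96 at 3.09 TPM. CD14, which hands lipopolysaccharide to this complex, had 2, 0 and 3 counts in Ctrl and 2, 10 and 3 in WNK463. Its level was 0.139 ± 0.128 TPM in Ctrl and 0.468 ± 0.393 TPM in WNK463 (SD, n = 3 each), and without the filter it was not called (edgeR adjusted p = 0.205).

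Within each library, the balance between receptors could be read without any scaling between libraries. The TPM ratio of TLR2 to TLR4 was 6.65, 6.51 and 5.69 in Ctrl and 12.6, 14.4 and 11.9 in WNK463. The means were 6.28 ± 0.522 and 13.0 ± 1.25 (SD, n = 3 each). This ratio joins a gene called higher with one called lower, so it restates those calls, and its permutation p supports nothing further. In plain counts the ratio went from 3.63 ± 0.126 to 6.62 ± 0.728. The TPM ratio of TLR2 to TLR1 was 7.90 ± 1.14 in Ctrl and 10.4 ± 1.75 in WNK463, that of TLR2 to TLR6 was 44.5 ± 5.79 and 61.0 ± 7.51, and that of TLR2 to MYD88 was 1.25 ± 0.0296 and 1.39 ± 0.0447. Of the summed TPM of the 10 Toll-like receptor genes TLR1 to TLR10, TLR2 made up 74.5 ± 1.64% in Ctrl and 81.8 ± 0.778% in WNK463. The share of TLR4 was 11.9 ± 0.779% in Ctrl and 6.35 ± 0.611% in WNK463. TLR1 took 9.54 ± 1.11% and 7.98 ± 1.16%, which overlap.

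**Figure D3:**
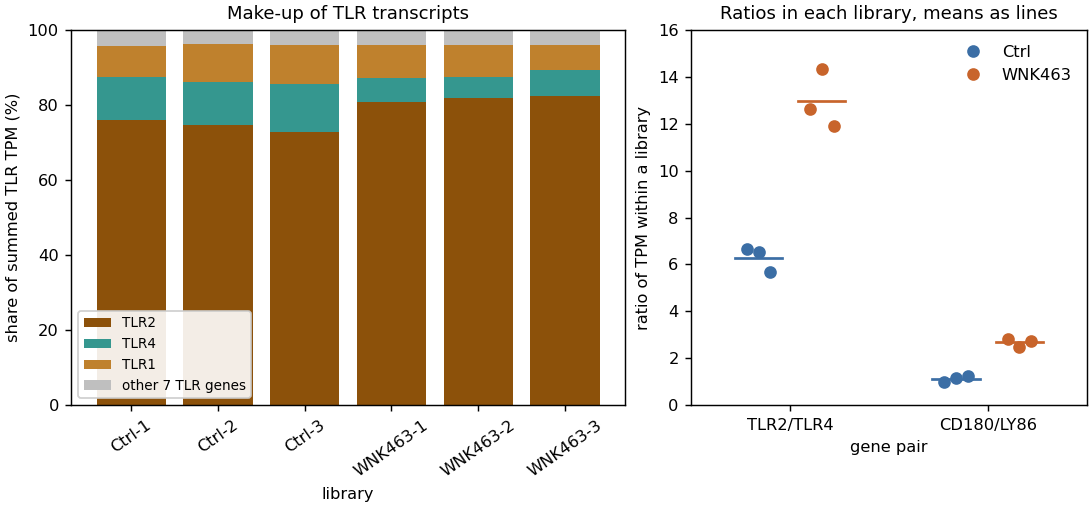
Left, share of each receptor in the summed TPM of the 10 Toll-like receptor genes, 1 bar per library. Right, TPM ratios of TLR2 to TLR4 and of CD180 to LY86 in each library (points, blue for Ctrl and orange for WNK463) with group means (lines). TLR2 is the largest part of every bar, and both ratios are higher in all 3 WNK463 libraries.

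The remaining receptors of the family were TLR3, a receptor for double-stranded RNA, and TLR10. TLR3 had between 0 and 12 counts per library and did not pass the filter (edgeR adjusted p = 0.261 without it). TLR10 had 7, 3 and 7 counts in Ctrl and 26, 37 and 35 in WNK463. It was near the limit of detection in Ctrl and clearly counted in all treated libraries, with a log2 fold change of 2.45 (SE 0.39, edgeR adjusted p = 2.1e-05) and 0.93 from limma on log2(TPM + 1). Only the WNK463 libraries brought TLR10 past the filter on low counts, so its call is no separate support. At chr4:38772239-38782990 it is the neighbour of TLR1 and TLR6, for neither of which a change was called.

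Among 6 co-receptors and ligand-transfer proteins, 4 were tested, 2 were called higher and 1 lower, or 75.0% called beside 70.8% of all genes, with a median log2 fold change of 0.35. CD36, a scavenger receptor that assists TLR2, had 1035, 924 and 1175 counts in Ctrl and 3883, 4009 and 3482 in WNK463. The level of CD36 rose from 66.0 ± 4.89 to 230.0 ± 6.68 CPM (SD over 3 libraries per group), and the log2 fold change was 1.80 (SE 0.06, edgeR adjusted p = 3.2e-14). CD180 (RP105), a receptor relative that lacks the signalling domain, rose by 0.79 on the log2 scale (SE 0.05, edgeR adjusted p = 3.7e-10). LY86 (MD-1), the chain that binds CD180 as LY96 binds TLR4, moved the other way, with a log2 fold change of -0.47 (SE 0.10, edgeR adjusted p = 2.7e-04). Limma on log2(TPM + 1) gave -0.26 for LY86. The CD180 to LY86 ratio in TPM, which restates these calls, was 1.13 ± 0.134 in Ctrl and 2.67 ± 0.159 in WNK463 (SD, n = 3 each). HMGB1, a nuclear protein that can act as a ligand when released, had a log2 fold change of -0.09 (edgeR adjusted p = 0.142). LBP, the lipopolysaccharide-binding protein of plasma, had 0, 1 and 1 counts in Ctrl and 17, 9 and 5 in WNK463. It did not pass the filter, and without the filter it was called higher (edgeR adjusted p = 8.3e-04).

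Of the 4 other adaptors 3 were tested, and 1 was called higher and 1 lower (66.7% called, beside 70.8% of all genes), with a median log2 fold change of -0.19. TIRAP, which bridges TLR2 and TLR4 to MYD88, had a log2 fold change of -0.19 (SE 0.17, edgeR adjusted p = 0.341), -0.03 under total-count scaling and -0.35 from limma on log2(TPM + 1). TICAM1 (TRIF), the adaptor of TLR3 and of internalised TLR4, was lower at -0.30 (SE 0.10, edgeR adjusted p = 0.0097), a call that total-count scaling ended (edgeR adjusted p = 0.178), as did limma on log2(TPM + 1) (adjusted p = 0.453). SARM1, described as an inhibitor of TRIF signalling, had 24, 11 and 18 counts in Ctrl and 37, 62 and 52 in WNK463, with a log2 fold change of 1.45 (SE 0.31, edgeR adjusted p = 4.1e-04) and 0.80 from limma on log2(TPM + 1). TICAM2 (TRAM), which links TLR4 to TRIF, had 0 counts in all Ctrl libraries and 37, 9 and 7 in WNK463. A count of 0 allows up to 3 counts, or 0.206 CPM in the shallowest control. TICAM2 did not pass the filter, and without the filter it was called higher (edgeR adjusted p = 2.3e-06). The TICAM2 gene shares exons with the readthrough gene TMED7-TICAM2, looked up after the values were seen, which had 39, 53 and 56 counts in Ctrl and 34, 103 and 84 in WNK463. How reads were divided between TICAM2 and the readthrough gene is uncertain.

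Among the chaperones and carriers that fold or transport the receptors, 9 of 10 were tested, and 1 was called higher and 3 lower, beside 70.8% of all genes called in either direction. The median log2 fold change was 0.02, equal to that of all genes tested. Under total-count scaling 4 were called higher and 3 lower. LRRC59, which helps carry nucleic acid-sensing receptors out of the endoplasmic reticulum, fell from 357.5 ± 14.5 to 137.7 ± 0.563 CPM (SD, n = 3 each; log2 fold change -1.38, edgeR adjusted p = 7.9e-14). TASL, an adaptor that connects endosomal receptors to IRF5, fell by 0.65 on the log2 scale (edgeR adjusted p = 2.1e-08). HSP90B1 (gp96), the chaperone most Toll-like receptors need and the most abundant gene of the list, had a log2 fold change of -0.31 (edgeR adjusted p = 1.3e-04), which total-count scaling brought to -0.16 (edgeR adjusted p = 0.0263) and limma on log2(TPM + 1) to -0.11 (adjusted p = 0.293). SLC15A3, a peptide transporter of endosomes, was the gene called higher, at 0.64 (edgeR adjusted p = 0.007).

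Downstream of MYD88, 14 of 15 genes of the IRAK, TRAF and TAK1 step were called, 8 higher and 6 lower, beside 70.8% of all genes, and the median log2 fold change was 0.23. Total-count scaling gave 8 higher and 3 lower. IRAK1, the kinase recruited to the MYD88 complex and the most abundant gene of the step, fell from 333.9 ± 15.9 to 182.9 ± 3.38 CPM (SD, n = 3 each; log2 fold change -0.87, edgeR adjusted p = 3.5e-11). Its relative IRAK2 had only 6, 2 and 10 counts in Ctrl and 21, 28 and 15 in WNK463, a log2 fold change of 1.75 (SE 0.45, edgeR adjusted p = 0.0023) and 0.58 from limma on log2(TPM + 1). As for TLR10, only the WNK463 libraries brought IRAK2 past the filter on low counts, and without it 7 of 14 genes were higher, with a median of 0.09. The ubiquitin ligases PELI1 and PELI3, which act on IRAK proteins, were higher at 1.28 and 0.83 on the log2 scale. TRAF3 and TAB1 were lower, at -0.49 and -0.38 on the same scale, and TAB1 was at -0.22 under total-count scaling. Limma on log2(TPM + 1) gave -0.28 for TRAF3 and -0.14 for TAB1, the latter not called (adjusted p = 0.108). In the IKK and TBK1 step, 1 of 5 genes was called higher and 3 lower, or 80.0% called, with a median log2 fold change of -0.19. Under total-count scaling this step had 2 higher and 2 lower, with a median of -0.03. IKBKE was lower at a log2 fold change of -0.70, IKBKG at -0.45 (-0.30 under total-count scaling, -0.21 from limma on log2(TPM + 1)) and IKBKB, the most abundant, at -0.19. TBK1 was higher at 0.21 with an edgeR adjusted p of 0.049, at the edge of the threshold, and its groups overlapped in CPM. Total-count scaling gave 0.36. In TPM the direction of TBK1 turned, with 46.6 ± 16.4 in Ctrl and 35.8 ± 4.12 in WNK463 (SD, n = 3 per group). The call of IKBKB was lost under total-count scaling (edgeR adjusted p = 0.599) and in limma on log2(TPM + 1) (adjusted p = 0.904).

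Among 11 negative regulators of the pathway, 6 were called higher and 1 lower, with a median log2 fold change of 0.29. The share called, 63.6%, was below the 70.8% of all genes. CYLD, a deubiquitinase that restrains NF-kB, rose from 70.2 ± 2.95 to 159.6 ± 1.53 CPM (SD, n = 3 each; log2 fold change 1.19, edgeR adjusted p = 1.5e-12). TRIB1, a pseudokinase, rose by 1.08 and TNFAIP3 (A20), a ubiquitin-editing enzyme, by 0.89 on the log2 scale. PIK3AP1 (BCAP), the most abundant of the list, was called lower at -0.11 (edgeR adjusted p = 0.0481), and total-count scaling gave 0.05 and limma on log2(TPM + 1) 0.02, neither called. Total-count scaling gave 8 higher and 0 lower in edgeR. Of 9 transcription factors, 4 were called higher and 3 lower, or 77.8% beside 70.8% of all genes, with a median log2 fold change of 0.17. JUN, a subunit of AP-1, was higher at a log2 fold change of 1.36, NFKB1 at 0.55 and IRF5 at 0.34 (0.53 from limma on log2(TPM + 1)). IRF8, a myeloid factor and the most abundant of the list, was lower at -0.75, RELA at -0.65 and IRF3 at -0.51.

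Of 13 genes that the pathway is known to induce, 7 were tested, and 5 were called higher and 0 lower by edgeR, with a median log2 fold change of 0.53. The share called, 71.4%, was close to the 70.8% of all genes. Of all genes tested, called or not, 35.5% were called higher and 35.3% lower. CCL5, a chemokine singled out after its values were seen, was not called, with a log2 fold change of -0.40 (edgeR adjusted p = 0.136) and groups that did not overlap in CPM but did in TPM. Total-count scaling gave -0.24 for CCL5, and limma on log2(TPM + 1) gave -0.0079 (adjusted p = 0.97). IL1B, the inflammasome-processed cytokine, had 89, 88 and 94 counts in Ctrl and 565, 604 and 546 in WNK463. The IL1B level went from 5.73 ± 0.308 to 34.7 ± 0.516 CPM (SD, n = 3 each; log2 fold change 2.60, SE 0.10, edgeR adjusted p = 1.8e-13). CXCL8, a neutrophil chemokine, rose by 2.03 on the log2 scale (SE 0.12, edgeR adjusted p = 5.9e-11). CCL3, a chemokine for monocytes, had 3, 4 and 5 counts in Ctrl and 21, 23 and 33 in WNK463. It too passed the filter on low counts only through the WNK463 libraries, and without it 4 of 6 genes were higher, with a median of 0.50. The log2 fold change of CCL3 was 2.59, and 1.69 from limma on log2(TPM + 1). NFKBIA, the inhibitor that NF-kB itself induces, rose by 0.53 on the log2 scale (edgeR adjusted p = 1.2e-05). Of the 6 genes that did not pass the filter, IL6 and IL10 had 0 counts in all 6 libraries. CXCL10, an interferon-induced chemokine, had 2, 0 and 2 counts in Ctrl and 7, 22 and 21 in WNK463, and CCL4, a relative of CCL3, had 0 in each Ctrl library and 2, 5 and 2 in WNK463. Without the filter both were called higher (edgeR adjusted p = 1.0e-04 and 0.0268), while IL12B and IFNB1, at 3 counts or fewer per library, were not. These 4 were singled out after their values were seen. Of 5 receptor chains of the interleukin family that also use MYD88, only IL1RAP was tested, and it rose by 0.54 on the log2 scale (edgeR adjusted p = 9.5e-09), while 3 had 0 counts in every library.

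**Figure D4:**
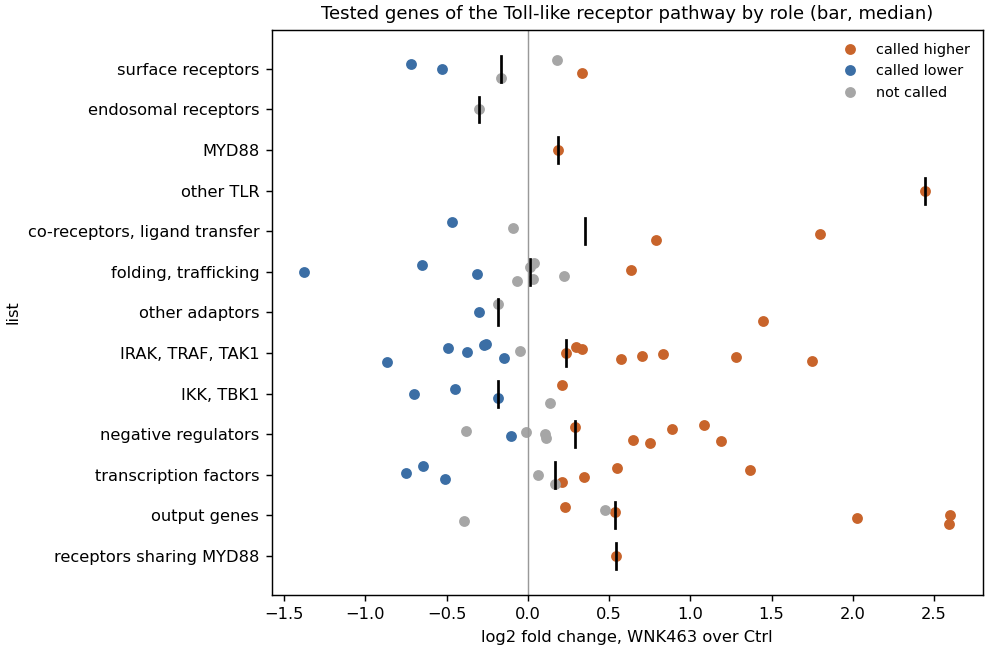
Log2 fold change of WNK463 over Ctrl for each tested gene of the pathway by role, with orange for called higher, blue for called lower, grey for not called and a bar for the median of each list. The output genes IL1B, CCL3 and CXCL8 and the receptor TLR10 lie farthest to the right, and LRRC59 farthest to the left.

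Counted over all lists of the pathway without the 10 genes themselves, 65 of 80 genes were tested, 30 were called higher and 18 lower (73.8% called, against 70.8% of all genes), and the median log2 fold change was 0.17 against 0.02 for all genes. Under total-count scaling the counts were 37 and 12, and the medians 0.32 and 0.17. Without TLR10, IRAK2 and CCL3, 27 of 62 genes were called higher, and the median under TMM was 0.13. The rows annotated in the deposited table with the KEGG Toll-like receptor signaling pathway numbered 102 with all 10 genes among them. Of the other 92, 63 were tested, with 27 higher and 18 lower and a median log2 fold change of 0.06. Without genes that passed the filter through a single group only, 25 of 61 were higher and 18 lower, with a median of 0.06. Total-count scaling gave 35 higher and 11 lower. Under TMM 71.4% of the tested genes in that set were called, close to the 70.8% of all genes.

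The identity of the cells was checked against marker genes, since a change in cell state or cell mixture and a change of RNA per cell cannot be told apart in bulk RNA. All 10 myelomonocytic markers were tested, 4 were called higher and 5 lower, beside 35.5% higher and 35.3% lower among all genes, with a median log2 fold change of -0.07. Under total-count scaling the balance turned, with 5 called higher and 3 lower and a median of 0.08. The summed level of the 10 markers was 2567, 2594 and 2650 CPM in Ctrl and 1562, 1528 and 1580 CPM in WNK463. The fall was that of LYZ, since the other 9 summed to 1241, 1259 and 1244 CPM in Ctrl and 1275, 1247 and 1276 CPM in WNK463. LYZ, the most abundant, fell by 2.22 and MPO by 2.50 on the log2 scale, while ITGAM rose by 1.25, CSF1R by 0.97 and CSF3R by 0.21. CD33 was lower at -0.38. Under total-count scaling CSF3R was at 0.36 and CD33 at -0.23. Limma on log2(TPM + 1) gave -1.48 for MPO, 0.40 for CSF3R and -0.15 for CD33, the last not called (adjusted p = 0.0629). The part of these shifts in the receptor changes was not tested.

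Markers of other cell types were low, at 0 or carried by single genes. Of the B cell genes, MS4A1 was at 0 counts throughout. PAX5, the most abundant and the only tested gene of that list, had 16, 14 and 19 counts in Ctrl and 34, 35 and 30 in WNK463 and was called higher at a log2 fold change of 0.95 (0.44 from limma on log2(TPM + 1)). CD79B, singled out after its values were seen, had 13, 6 and 5 counts in Ctrl and 0, 0 and 3 in WNK463. It did not pass the filter, and without the filter it was called lower (edgeR adjusted p = 0.0075). The 5 T and NK cell genes summed to 0.913, 1.03 and 1.28 CPM in Ctrl and 0.543, 0.465 and 0.447 CPM in WNK463. CD3D was at 0 counts in all libraries, and NCAM1, the only tested gene there, was lower at -1.32 and passed the filter on low counts only through the Ctrl libraries. Limma on log2(TPM + 1) gave -0.10 for NCAM1, not called (adjusted p = 0.519). The 5 plasmacytoid dendritic cell genes summed to 30.02, 36.4 and 37.7 CPM in Ctrl and 33.0, 33.0 and 31.4 CPM in WNK463, nearly all of it TCF4, which was not called, and GZMB was at 0 counts. Of the erythroid and megakaryocyte genes, HBB, ALAS2 and PF4 were at 0 counts in all libraries. ITGA2B, the most abundant, was at 17.41, 16.5 and 14.0 CPM in Ctrl and 41.2, 40.5 and 43.2 CPM in WNK463, with a log2 fold change of 1.38. The 5 epithelial, stromal and endothelial genes summed to 114.8, 101.9 and 105.1 CPM in Ctrl and 183.4, 169.2 and 175.3 CPM in WNK463. Most of this was PECAM1, also a leukocyte gene, which rose by 0.80 on the log2 scale. KRT18 was lower at -0.68 (-0.45 from limma on log2(TPM + 1)), and EPCAM was at 0 counts.

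For the 2 tested genes with the largest absolute log2 fold change, TLR5 and TLR4, the genes with the most similar pattern over the 6 libraries were found among 11872 genes with a count in every library. The measure was the Euclidean distance between log2 CPM values centred on each gene's mean. For TLR4 the nearest were HIC2 at a distance of 0.0522, UBE4B at 0.0543 and CKAP5 at 0.0643. For TLR5 they were UQCC2 at 0.0778, TOMM22 at 0.0884 and ELMO1 at 0.110. This distance includes the difference between the groups, so a similar fold change follows from the choice.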

How the data were processed

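RNA from 3 Ctrl and 3 WNK463 cultures of MV4-11 was sequenced on an Illumina instrument after mRNA capture. The authors deposited estimated counts per gene as whole numbers, and these were used without further rounding. The authors also deposited TPM values, scaled by them to a common sum per library. The submitters' processing notes name the build GRCh38 and the tools fastp, Bowtie2, HISAT2, StringTie, RSEM, DESeq2 and edgeR. Versions, the gene annotation and whether counting used strand are not given in the sources used here. The deposited table also holds group means, log2 fold changes, p-values and FDR of the authors' own comparison, which were not used.

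Counts were tested in R 4.3.3 with edgeR 4.0.16 (quasi-likelihood test, TMM scaling, default filterByExpr, no replicate block) over the whole table, with Benjamini-Hochberg adjustment over the 11973 genes that passed the filter. Genes were called at an adjusted p below 0.05. Standard errors and 95% intervals were derived from the F statistics. Two-sided exact permutation tests were run on single genes, the sum of TLR1 and TLR6, ratios and shares. Those of ratios and shares restate calls of single genes and are not used. The script was tested on simulated data. The alternatives were total-count scaling, DESeq2 1.42.0, other filters on low counts, limma 3.58.1 on log TPM with pseudocounts of 1 and 0.1, a replicate block, a threshold of 0.01 and leaving out each sample. Total counts of 14915745 to 17411780 gave a variation between replicates of 5.21% for a typical gene (square root of the common dispersion).

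The 10 genes and the 20 gene lists were chosen with earlier results of these data known. All receptors, co-receptors and adaptors were named, and in each other list up to 3 called genes per direction with the largest change, plus the most abundant gene. Gene positions came from GENCODE 29. Some marker genes of the lists are not reported here.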

Additional observations from a re-analysis of the deposited data

How the results depend on the processing

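TLR2, TLR4 and MYD88 kept their direction and their call in all 14 alternatives run for each. Their log2 fold changes ranged from 0.30 to 0.53 for TLR2, from -0.56 to -0.37 for TLR4 and from 0.17 to 0.37 for MYD88. The number of the 10 genes called higher was 2 in every alternative, and the number at 2-fold or more was 0 in every alternative that was run for it. The number called lower was 2, and it was 1 under total-count scaling, DESeq2, no filter on low counts, limma on log2(TPM + 1) and log2(TPM + 0.1) with the filter on mean TPM, and an adjusted p below 0.01. Without each sample in turn it was 1 in all 6 fits (lowest 1, highest 1). The gene lost was TLR5, which the TPM filter had removed, and fewer samples were fitted when one was left out; in the other settings the cause was not tested.

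TLR1 reversed to 0.12 with limma on log2(TPM + 1), with and without the filter, and to 0.13 on log2(TPM + 0.1), never called. TLR9 reversed to 0.057 without WNK463 replicate 2 (edgeR adjusted p = 0.884, range over its alternatives 0.251 to 0.884), and its leave-one-out values ran from -0.56 to 0.057. Under total-count scaling HMGB1 reversed to 0.061, PIK3AP1 to 0.047 and TCF4 to 0.035, none called, and TICAM1 and IKBKB lost their calls. In limma on log2(TPM + 1) without a filter, an alternative for these other genes chosen after seeing the data, TBK1 reversed to -0.31, PIK3AP1 to 0.021 and TCF4 to 0.029, none called, and HSP90B1, TICAM1, TAB1, IKBKB, CD33 and NCAM1 lost their calls. The cause was not tested. Among genes outside the filter, tested without it, LBP, TICAM2, CXCL10 and CCL4 were called higher and CD79B lower, and TLR3, TLR7, TLR8, LY96 and CD14 were not called; for all but TLR7, TLR8 and LY96 this alternative was also chosen after seeing the data, as were the alternatives for SPI1 and CCL5. LY96 stayed uncalled in all 6 alternatives that tested it, from -0.12 without Ctrl replicate 2 to 0.49 without WNK463 replicate 3.

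The samples share replicate numbers, and no sign that the numbers pair them was seen. The deviations of same-numbered samples correlated at 0.019, -0.007 and -0.048, and those of unlike-numbered samples at -0.051 to 0.059. So few samples cannot exclude a pairing. With a replicate block 8398 of all genes were called in place of 8473, and 2 of the 10 genes were higher and 1 was lower. The counts of TLR7, TLR8 and LY96 never exceeded 13, and a limit set by depth was not tested.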
